A study of Mus musculus with 12 samples.

Results

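The heat shock proteins described here are 10 mouse genes of the cytosolic and mitochondrial heat shock response, chosen by symbol from the 55335 genes listed in each library. They are Hspa1a, Hspa1b, Hspa8, Hsp90aa1, Hsp90ab1, Hsph1, Dnajb1, Hspd1, Hspe1 and Hsf1, and all 10 were found by their Ensembl identifiers. They were measured by RNA-seq in sorted neutrophils of 3 groups, with 4 libraries per group and 12 in all. PyMT TANs are tumor-associated neutrophils from the mammary tumors of FVB-PyMT mice, which carry the polyoma middle T oncogene in the mammary gland. PyMT-Cxcr2-/- TANs come from the mammary tumors of FVB-PyMT-Cxcr2-/- mice, which carry the same transgene and in addition lack the chemokine receptor Cxcr2 in every cell of the animal. BM neutrophils come from the bone marrow of FVB WT mice, which have neither the transgene nor the deletion. All mice were 10 weeks old and kept in SOPF housing. Tumors were minced and digested before the sort, whereas bone marrow was not digested, and both were enriched for CD11b+ cells and sorted as CD45+ CD11b+ Ly6G+ F4/80-. Tissue, tumor-bearing host and digestion therefore change together between TANs and BM neutrophils and cannot be told apart in those comparisons.

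Heat shock proteins are molecular chaperones that hold, fold or refold other proteins. Hsp70 proteins (Hspa genes) act in cycles started by J proteins such as Dnajb1 and reset by Hsp110 (Hsph1), Hsp90 proteins (Hsp90aa1 and Hsp90ab1) act later on client proteins such as kinases, and Hspd1 with its lid Hspe1 folds proteins inside mitochondria. Under heat or other protein damage, the transcription factor Hsf1 binds heat shock elements, which are inverted repeats of a short GAA unit, and raises the transcription of the inducible members, while Hspa8 and Hsp90ab1 are the mainly constitutive forms. Several of these genes are also known to rise when tissue is dissociated and cells are handled, so that libraries of one group are compared with each other as well as groups.

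The promoters of the members differed in whether such an element was found, and the stretches that show this are given here in the direction of transcription, from RefSeq on GRCm38.p6. Of the 10 members, 6 had promoter windows in the table used. The 250 bases before the start of Hspa1a (chr17:34972157-34972406, minus strand) are shown first because this gene had the largest difference between TANs and BM neutrophils, and the capitals mark GAANNTTC.
Hspa1a: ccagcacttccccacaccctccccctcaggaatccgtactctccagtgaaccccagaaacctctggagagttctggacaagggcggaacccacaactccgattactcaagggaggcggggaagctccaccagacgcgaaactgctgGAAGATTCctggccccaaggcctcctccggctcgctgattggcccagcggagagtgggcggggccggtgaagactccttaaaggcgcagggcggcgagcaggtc
The element lay 104 to 97 bases before the start. The same window of Hspa1b was identical at 247 of 250 positions (98.8%) and held the element at the same distance. The differences between them were C44T, T47C and T249G, counted from 1 at the 5′ end, with the base of Hspa1a first.
For Hsph1 (chr5:149636351-149636380, minus strand) and Hspe1 (chr1:55088053-55088082, plus strand), 30 bases around the elements are shown, because these stretches overlap annotated 5′ untranslated regions of transcripts of Hsph1 and of the neighbouring Hspd1. The capitals mark TTCNNGAA in Hsph1 and, in Hspe1, the overlapping elements of a longer run of inverted units.
Hsph1: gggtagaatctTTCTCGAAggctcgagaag
Hspe1: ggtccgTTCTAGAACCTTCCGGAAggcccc
The 250 bases before the start of Dnajb1 (chr8:83607925-83608174, plus strand) are shown as the contrast, since neither element was found in them.
Dnajb1: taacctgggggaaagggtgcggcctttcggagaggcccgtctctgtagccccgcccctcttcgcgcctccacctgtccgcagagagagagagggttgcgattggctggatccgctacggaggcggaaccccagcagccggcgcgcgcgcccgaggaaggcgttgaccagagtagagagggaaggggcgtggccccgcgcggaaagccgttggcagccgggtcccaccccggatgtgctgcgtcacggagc
GAANNTTC or TTCNNGAA, each of which reads the same on both strands, was found in 250-base upstream windows of 5 of these 6 members (Hspa1a, Hspa1b, Hsph1, Hspd1 and Hspe1), against 14.5% of 27025 genes with windows and 12 of 53 other chaperone genes (22.6%). A longer form, GAANNTTC followed by NNGAA or TTCNNGAA followed by NNTTC, which contains the shorter ones, was found for Hspd1 and Hspe1, against 0.514% of all genes. Hspd1 and Hspe1 share one stretch, being transcribed away from each other, and Hspa1a and Hspa1b are near copies, so these matches are not independent of each other. Among other chaperone genes named below for large rises in PyMT TANs, windows of Hspb1 and Fkbp4 held an element and those of Bag3, Trap1 and Hsf2 did not. Dnajb6 held the longer form, with a log2 fold change over BM of 0.23 (adjusted p = 0.22 by edgeR) in PyMT TANs. Whether the element goes with a rise was not tested. A match describes letters in a window and shows no binding, and the lack of one for Dnajb1 says only that these letters are not in this window.

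Counts on genes summed to 25032704 to 43092085 per library of PyMT TANs, 35519181 to 51351569 of PyMT-Cxcr2-/- TANs and 38722900 to 44310707 of BM neutrophils. Levels are given as CPM, which puts counts on a common scale of library size, with TMM scaling over the 12 libraries, and 3 counts, taken as the smallest level that could be shown, corresponded to 0.0584 to 0.120 CPM on library totals, for counting error only. The deleted gene Cxcr2 ranged over 8.97 to 10.1 CPM in PyMT-Cxcr2-/- TANs, against 1030 to 1536 CPM for PyMT TANs and 1818 to 2250 CPM for BM neutrophils, as the genotypes in the labels require. The study describes the comparison of the TANs as one of separate animals in each group, and the labels do not state the source of the replicates, so that p-values measure the spread between these libraries.

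The inducible Hsp70 genes and Hsph1 were almost silent in BM neutrophils and abundant in both types of TANs. Hspa1a, Hspa1b and Hsph1 were 93.9- to 141.5-fold higher in TANs, a group of 5 members (Hspa8, Hsp90aa1, Hspd1, Hspe1 and Hsf1) was 1.81- to 7.60-fold higher, and Hsp90ab1 and Dnajb1 did not pass the test. Past the test means here a Benjamini-Hochberg adjusted p under 0.05 over all genes tested and a change of at least 1.5-fold, by edgeR's quasi-likelihood test, and SE stands for standard error. All 10 members passed the filter on low counts in each comparison. Between PyMT TANs and BM neutrophils 8 of 10 members were higher and 0 lower, where 30.1% of all genes tested were higher and 23.2% lower (53.3% in either direction). Between PyMT-Cxcr2-/- TANs and BM neutrophils the same 8 members were higher and 0 lower, against 34.4% higher and 25.1% lower of all genes (59.5% in either direction). In each comparison the libraries of the groups did not overlap for these 8 members, as was the case for 58.2% and 65.8% of all genes. The median log2 fold change of the members was 2.05 and 2.15, beside 0.09 over all genes in each comparison. Both comparisons use the same 4 BM libraries and are not independent. In bulk RNA from sorted cells, a change in the share of cells that carry a transcript and a change in the amount per cell cannot be told apart.

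**Figure D1:**
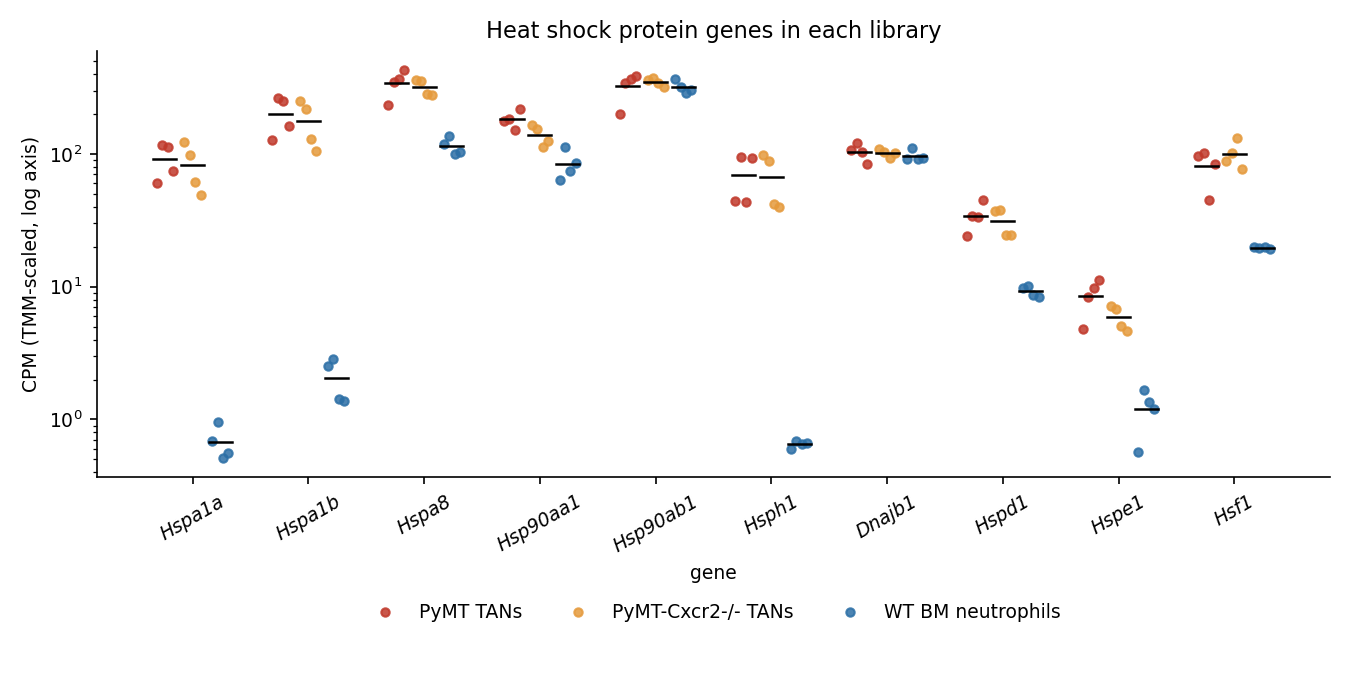
Level of each of the 10 heat shock protein genes in CPM (log axis) in the 4 libraries of PyMT TANs, PyMT-Cxcr2-/- TANs and BM neutrophils; each point is a library and each bar the mean of its group. Hspa1a, Hspa1b and Hsph1 lie between 39.6 and 263 CPM in TANs and between 0.514 and 2.86 CPM in BM neutrophils, whereas the points of Hsp90ab1 and of Dnajb1 overlap between the groups.

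Hspa1a (ENSMUSG00000091971; chromosome 17 of GRCm38, 34969190 to 34972156, minus strand) encodes an inducible cytosolic Hsp70. In PyMT TANs it was at 59.9, 117, 112 and 73.8 CPM in the libraries of replicates 1 to 4. The PyMT-Cxcr2-/- TANs had 123, 98.9, 61.4 and 49.4 CPM. In BM neutrophils it was at 0.689, 0.965, 0.514 and 0.559 CPM, which rests on 18 to 31 counts per library. Every TAN library was above every BM library, the lowest TAN value being 51.2 times the highest BM value. PyMT TANs exceeded BM by 7.15 (SE 0.32, adjusted p = 4.7e-08) in log2 fold change and PyMT-Cxcr2-/- TANs by 7.06 (SE 0.36, adjusted p = 2.7e-08), that is 141.5-fold and 133.1-fold. Corrected for GC content and length of the genes, which moved the median of all genes by -0.52, the value for PyMT-Cxcr2-/- TANs was 6.27 for Hspa1a, 5.79 for Hspa1b, 6.03 for Hsph1 and 1.86 for Hsf1, all still past the test.

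Hspa1b (ENSMUSG00000090877; chromosome 17, 34956436 to 34959238, minus strand), which encodes a nearly identical Hsp70, lies 9.95 kb from Hspa1a. Its levels were 127, 263, 249 and 164 CPM in PyMT TANs. They were 252, 218, 129 and 106 CPM in PyMT-Cxcr2-/- TANs. In BM neutrophils they were 2.55, 2.86, 1.43 and 1.37 CPM. The libraries fell in the same order as for Hspa1a in both types of TANs, and no TAN library overlapped with BM. The rise in log2 fold change was 6.70 for PyMT TANs (SE 0.36, adjusted p = 1.1e-07) and 6.55 for PyMT-Cxcr2-/- TANs (SE 0.38, adjusted p = 1.4e-07). Of the 150-base windows of their transcripts, 46.0% for Hspa1a and 40.5% for Hspa1b also occur in other genes, mainly in each other, and an exon of Hspa1a overlaps Gm20481 on the other strand. Reads without a unique alignment were set aside in the counting, so both genes may be counted too low and their ratio is uncertain. The ratio of Hspa1b to Hspa1a counts was 2.05 to 2.25 in the TAN libraries and 2.45 to 3.70 in the BM libraries.

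Hsph1 (ENSMUSG00000029657; chromosome 5, 149614287 to 149636376, minus strand) encodes Hsp110, the exchange factor that resets Hsp70. It was at 44.5, 94.0, 43.1 and 93.9 CPM in PyMT TANs. It was at 97.9, 87.7, 42.2 and 39.6 CPM in PyMT-Cxcr2-/- TANs. In BM neutrophils it was at 0.599, 0.685, 0.657 and 0.671 CPM, 20 to 24 counts per library. In each type of TANs a pair of libraries lay at 87.7 CPM or more and another pair at 44.5 CPM or less, and the lowest of the 8 was still 57.8 times the highest BM library. Both types of TANs gave nearly the same log2 fold change over BM, 6.80 (SE 0.35, adjusted p = 9.9e-08) for PyMT and 6.79 (SE 0.38, adjusted p = 5.6e-08) for PyMT-Cxcr2-/-. None of its 150-base windows occurs in another gene's transcripts.

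Hspa8 (ENSMUSG00000015656; chromosome 9, 40800984 to 40810087, plus strand), the constitutive Hsp70, was already well expressed in BM neutrophils, at 119, 136.5, 99.6 and 103 CPM. In PyMT TANs it was at 234, 345, 369 and 427 CPM. The levels in PyMT-Cxcr2-/- TANs were 357, 353, 284 and 276 CPM. The groups did not overlap with BM, although the lowest TAN library was only 1.72 times the highest BM library. Hspa8 rose by a log2 fold change of 1.68 in PyMT TANs (SE 0.19, adjusted p = 2.5e-05) and of 1.59 in PyMT-Cxcr2-/- TANs (SE 0.13, adjusted p = 2.6e-07). Of its windows 22.4% also occur in other genes, and small nucleolar RNA genes lie within it on the same strand.

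Dnajb1 (ENSMUSG00000005483; chromosome 8, 83608193 to 83612653, plus strand) encodes the J protein that delivers clients to Hsp70 and is a classical heat-inducible gene, and it did not pass the test. It was at 107, 121, 104 and 83.6 CPM in PyMT TANs. It was at 110, 103, 92.9 and 101 CPM in PyMT-Cxcr2-/- TANs, and at 92.0, 112, 91.8 and 93.0 CPM in BM neutrophils. The 3 groups overlapped, and 1 of the 8 TAN libraries was above the highest BM library. Its log2 fold change over BM had a 95% interval of -0.11 to 0.47 around 0.18 for PyMT TANs (adjusted p = 0.27) and of -0.03 to 0.40 around 0.19 for PyMT-Cxcr2-/- TANs (adjusted p = 0.11). When each library was corrected for how its counts vary with GC content and length of the genes, the sign turned. The values were -0.17 (adjusted p = 0.33 by edgeR) and -0.39 (adjusted p = 0.0058), the latter under the 1.5-fold limit. The median of all genes moved by -0.33 and -0.52, so that relative to that median Dnajb1 was at 0.16 and 0.14. With a filter of at least 1 CPM in 4 libraries, PyMT-Cxcr2-/- TANs gave 0.24 (adjusted p = 0.035). Without PyMT-Cxcr2-/- replicate 3 they gave 0.25 (adjusted p = 0.044), both also under that limit.

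Of the cytosolic Hsp90 genes, the inducible Hsp90aa1 was higher in TANs and the constitutive Hsp90ab1 was not past the test. Hsp90aa1 (ENSMUSG00000021270; chromosome 12, 110690605 to 110702728, minus strand) was at 176, 184, 152 and 219 CPM in PyMT TANs. It was at 164, 154, 113 and 126 CPM in PyMT-Cxcr2-/- TANs, and at 63.3, 112.5, 74.0 and 85.4 CPM in BM neutrophils. BM replicate 2 reached almost the lowest PyMT-Cxcr2-/- library. Hsp90aa1 was higher by a log2 fold change of 1.21 for PyMT TANs (SE 0.18, adjusted p = 0.00017) and of 0.85 for PyMT-Cxcr2-/- TANs (SE 0.17, adjusted p = 0.00056). Under the correction for GC content and length, the value in PyMT-Cxcr2-/- TANs fell to 0.42 (adjusted p = 0.024), under the 1.5-fold limit, while the median of all genes moved by -0.52. Of its windows 36.2% also occur in processed copies elsewhere.

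Hsp90ab1 (ENSMUSG00000023944; chromosome 17, 45567775 to 45573271, minus strand) was at 200.96, 339, 368 and 384.5 CPM in PyMT TANs. It was at 360, 373, 342 and 320 CPM in PyMT-Cxcr2-/- TANs, and at 366, 319, 286 and 304.5 CPM in BM neutrophils. The groups overlapped, and PyMT replicate 1 was the lowest of the 12 libraries. Over BM, its log2 fold change was 0.11 (95% interval -0.33 to 0.55, adjusted p = 0.67) for PyMT TANs and 0.25 (0.01 to 0.49, adjusted p = 0.056) for PyMT-Cxcr2-/- TANs. Its sign also turned under the correction for GC content and length, to -0.19 and -0.27, and relative to the median of all genes it was then at 0.14 and 0.26. With the filter of at least 1 CPM in 4 libraries, PyMT-Cxcr2-/- TANs gave 0.31 (adjusted p = 0.013 by edgeR), under the 1.5-fold limit. Without PyMT-Cxcr2-/- replicate 3 they gave 0.29 (adjusted p = 0.040 by edgeR) and without replicate 4 0.29 (adjusted p = 0.030). Without BM replicate 1 the value was 0.305 (adjusted p = 0.021 by edgeR), and these also lay under that limit.

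The mitochondrial chaperonin genes rose together. Hspd1 (ENSMUSG00000025980; chromosome 1, 55077835 to 55088243, minus strand), which encodes the Hsp60 barrel, was at 24.2, 34.3, 33.5 and 45.0 CPM in PyMT TANs. It was at 37.2, 37.99, 24.5 and 24.7 CPM in PyMT-Cxcr2-/- TANs, and at 9.86, 10.1, 8.63 and 8.30 CPM in BM neutrophils. All TAN libraries were at least 2.39 times the highest BM library. Hspd1 rose by 1.98 in log2 fold change for PyMT TANs (SE 0.21, adjusted p = 1.2e-05) and by 1.88 for PyMT-Cxcr2-/- TANs (SE 0.17, adjusted p = 6.2e-07).
Hspe1 (ENSMUSG00000073676; chromosome 1, 55088132 to 55091307, plus strand), which encodes the Hsp10 lid, was at 4.78, 8.38, 9.81 and 11.3 CPM in PyMT TANs. It was at 7.21, 6.81, 5.03 and 4.63 CPM in PyMT-Cxcr2-/- TANs, and at 0.569, 1.68, 1.34 and 1.202 CPM in BM neutrophils. PyMT replicate 1 was the lowest PyMT library for both genes and replicate 4 the highest. Hspe1 rose by 2.93 in log2 fold change for PyMT TANs (SE 0.40, adjusted p = 8.7e-05) and by 2.42 for PyMT-Cxcr2-/- TANs (SE 0.31, adjusted p = 1.1e-05). The first exons of this pair overlap on opposite strands, and 18.6% of the Hspd1 windows also occur in a pseudogene, so that their counts are uncertain. The ratio of Hspd1 to Hspe1 counts was 3.42 to 5.58 in the TAN libraries and 6.02 to 17.3 in the BM libraries.

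Hsf1 (ENSMUSG00000022556; chromosome 15, 76477422 to 76501913, plus strand), the transcription factor of the heat shock response, was higher in TANs. In BM neutrophils it was at 19.9, 19.6, 20.03 and 19.3 CPM. In PyMT TANs it was at 95.6, 101, 45.0 and 83.3 CPM, and in PyMT-Cxcr2-/- TANs at 88.6, 101, 132 and 77.1 CPM. The BM libraries lay close together, whereas the TAN libraries spread from 45.0 to 132 CPM without reaching BM. Its log2 fold change over BM was 2.12 for PyMT TANs (SE 0.21, adjusted p = 9.1e-06) and 2.46 for PyMT-Cxcr2-/- TANs (SE 0.15, adjusted p = 2.0e-08). Since Hsf1 is controlled largely at the protein level, its transcript is not a measure of its activity.

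Compared between genes per kilobase of exon (RPKM from the same scaled counts, mean ± SD, n = 4), the order of the levels differed between the tissues. The length was that of all annotated exons of a gene, merged. It was 4301 bases for Hspa8, 7099 for Hsf1 and 7266 for Hsph1, whose longest transcripts have 3158, 3133 and 4764 bases. For Hspa1a and Hspa1b both lengths are the same, at 2967 and 2803 bases. The orders below hold for this length only and were not taken with another. Hspa1a and Hspa1b may also be counted too low, given their shared windows. In BM neutrophils the order was led by Hsp90ab1 (106 ± 11.4 RPKM), Dnajb1 (30.3 ± 3.03), Hspa8 (26.6 ± 3.93) and Hsp90aa1 (21.3 ± 5.38), of which neighbours from Dnajb1 to Hsp90aa1 lay within the larger SD of each other. Hspd1 (3.49 ± 0.338) and Hsf1 (2.78 ± 0.0452) followed, and Hspe1 (0.813 ± 0.316), Hspa1b (0.732 ± 0.273), Hspa1a (0.230 ± 0.0683) and Hsph1 (0.0899 ± 0.00518) were lowest. In PyMT TANs Hsp90ab1 (108 ± 27.9 RPKM) was highest. Hspa1b (71.6 ± 23.4) was near Hspa8 (80.0 ± 18.8), and Hspa1a (30.6 ± 9.50) was near Dnajb1 (32.5 ± 4.86). Hsp90aa1 (46.5 ± 7.08) lay between these pairs. The members of each pair, and Hspa8 and Hsp90ab1, lay within their SD of each other. Hsp90ab1 in PyMT-Cxcr2-/- TANs was at 116 ± 7.73 RPKM, Hspa8 at 73.8 ± 10.1, Hspa1b at 62.8 ± 24.99, Hsp90aa1 at 35.4 ± 6.07, Dnajb1 at 31.7 ± 2.15 and Hspa1a at 28.0 ± 11.4. Hsph1, whose exons sum to 7266 bases, was at 9.48 ± 3.98 RPKM in PyMT TANs and 9.20 ± 4.17 RPKM in PyMT-Cxcr2-/- TANs. Hspd1 was at 12.96 ± 3.21 and 11.8 ± 2.85 RPKM and Hsf1 at 11.5 ± 3.56 and 14.03 ± 3.31 RPKM, of which only Hsf1 in PyMT-Cxcr2-/- TANs differed from Hsph1 by more than the larger SD. Hspe1 was at 5.81 ± 1.89 and 4.02 ± 0.869 RPKM.

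No member passed the test between PyMT-Cxcr2-/- and PyMT TANs. The comparison asks whether the loss of Cxcr2 changed these genes in TANs, and 0 of 10 members were called, where 1.98% of all genes tested were called (1.38% higher and 0.596% lower). For 0 of 10 members were the groups without overlap, against 11.9% of all genes. At an unadjusted p under 0.05 there was 1 member, Hsp90aa1, and DESeq2 also called 0, with 1 at that level. The share of all genes at that level was not taken. Hsp90aa1 had a log2 fold change of -0.43 (95% interval -0.78 to -0.08, adjusted p = 0.21 by edgeR's quasi-likelihood test), from 182.7 ± 27.8 CPM in PyMT TANs to 139.0 ± 23.8 CPM in PyMT-Cxcr2-/- TANs (SD, n = 4). Hspe1 was at -0.57 (-1.22 to 0.08), and Hsf1 at 0.26 (-0.26 to 0.79). The intervals of the inducible genes were wide, at -0.82 to 0.49 for Hspa1a, -0.90 to 0.44 for Hspa1b and -0.88 to 0.72 for Hsph1. Those of Hspa8 (-0.56 to 0.26), Hsp90ab1 (-0.35 to 0.49), Dnajb1 (-0.38 to 0.24) and Hspd1 (-0.66 to 0.31) were narrower. A difference of 1.5-fold, 0.585 on the log2 scale, thus lay within the intervals of 6 members (Hspa1a, Hspa1b, Hsp90aa1, Hsph1, Hspd1 and Hspe1) on the lower side and within those of Hsph1 and Hsf1 on the higher side.

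**Figure D2:**
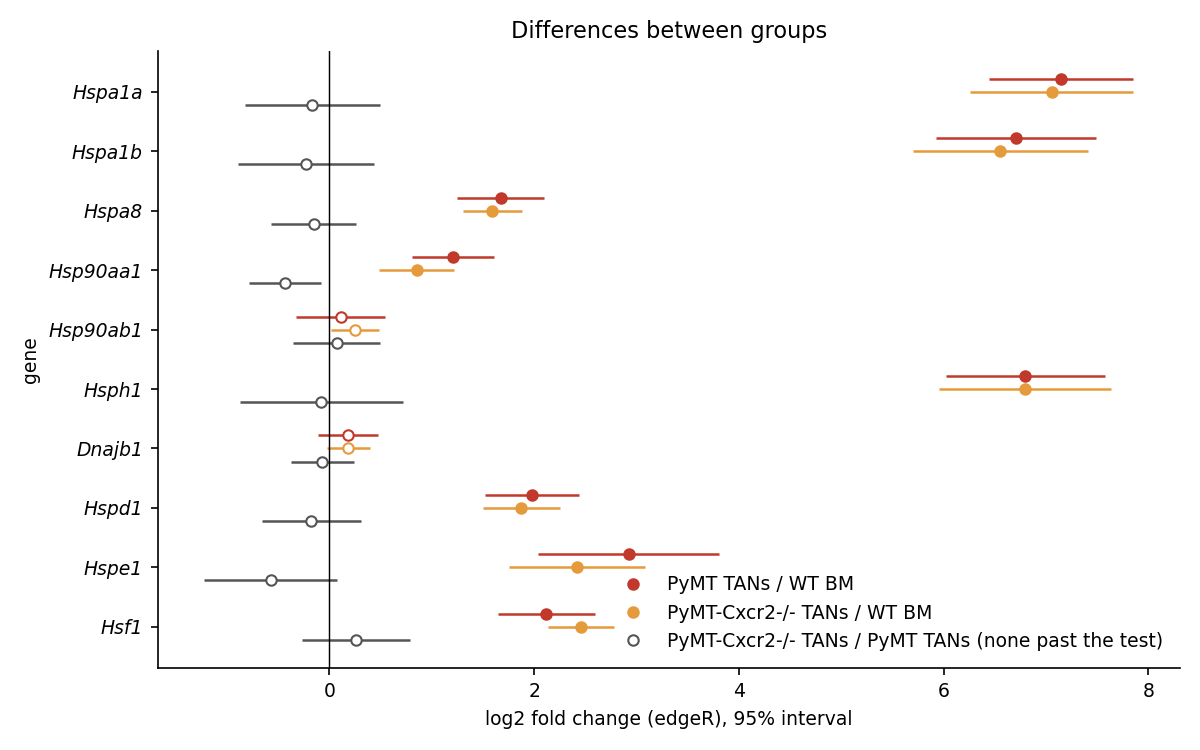
Log2 fold change of each member with its 95% interval (edgeR, n = 4 libraries per group) for PyMT TANs over BM, PyMT-Cxcr2-/- TANs over BM and PyMT-Cxcr2-/- TANs over PyMT TANs; filled points passed the test and open points did not. Hspa1a, Hspa1b and Hsph1 lie between 6.55 and 7.15 against BM, Hsp90ab1 and Dnajb1 between 0.11 and 0.25, and the comparison between the TANs has no filled point.

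Within each type of TANs the libraries differed, and more so for some members than for others. In PyMT-Cxcr2-/- TANs replicates 1 and 2 were both above replicates 3 and 4 in 9 of 10 members, the exception being Hsf1. The SD of log2 CPM over these 4 libraries was 0.60 for Hspa1a, 0.60 for Hspa1b and 0.69 for Hsph1, where 200 genes of like level had median SDs of 0.17, 0.18 and 0.16. In the same libraries Dnajb1 (0.10, like genes 0.16) and Hsp90ab1 (0.10, like genes 0.19) were among the steadier genes. In PyMT TANs replicate 1 was the lowest library for 6 members (Hspa1a, Hspa1b, Hspa8, Hsp90ab1, Hspd1 and Hspe1), and replicates 2 and 4 were the highest for 5 members each. The SD was 0.64 for Hsph1 (like genes 0.27), 0.54 for Hspe1 (0.45), 0.54 for Hsf1 (0.27), 0.50 for Hspa1b (0.25) and 0.47 for Hspa1a (0.26), and it was smallest for Hsp90aa1 (0.22, like genes 0.25) and Dnajb1 (0.22, like genes 0.27). In BM neutrophils the SD was 0.35 for Hsp90aa1 (like genes 0.13), 0.64 for Hspe1 (0.36) and 0.02 for Hsf1 (0.16). The members did not all follow one order, since PyMT replicate 3 was high for Hspa1a and Hspa1b and the lowest for Hsph1, Hsp90aa1 and Hsf1.

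**Figure D3:**
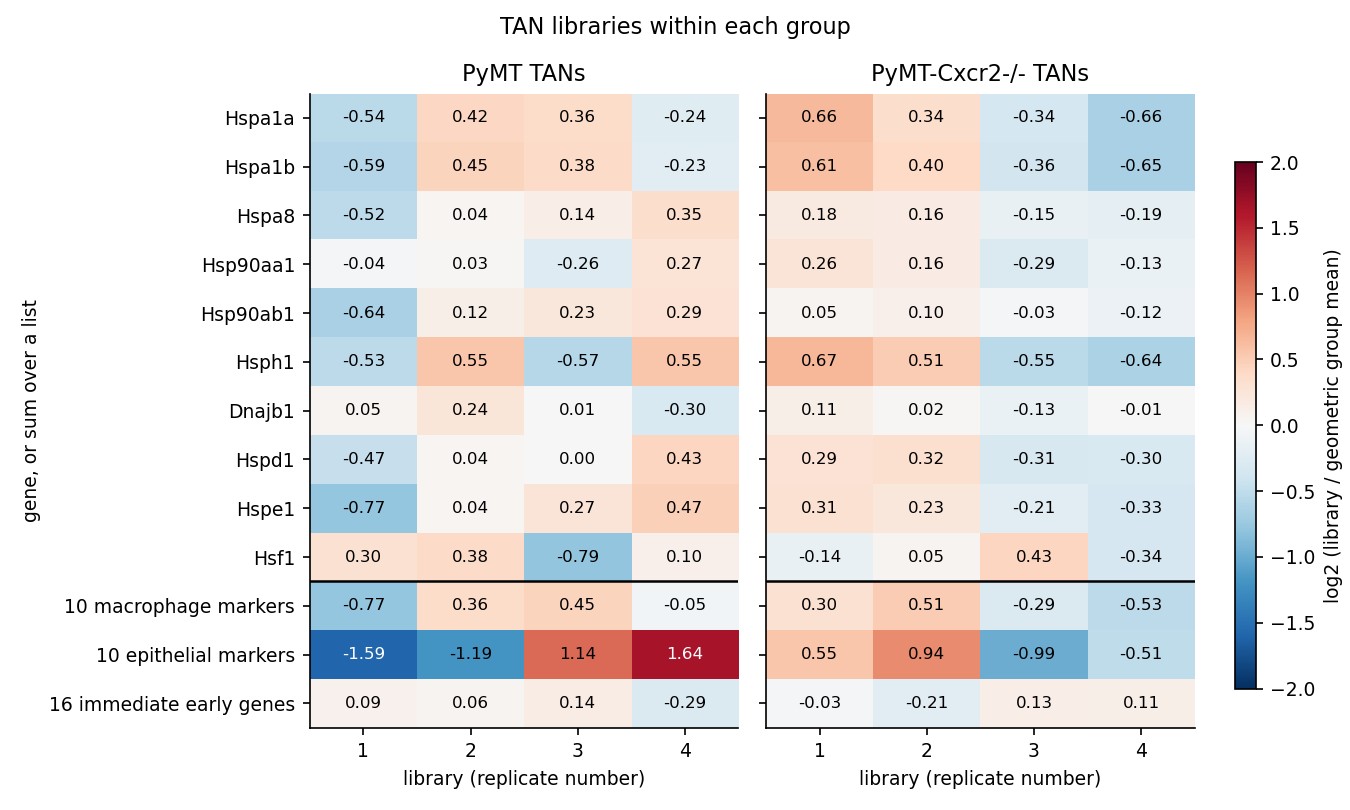
Log2 of each TAN library over the geometric mean of its group (colour and printed value), for the 10 members and for the summed CPM of 10 macrophage markers, 10 epithelial markers and 16 immediate early genes, with PyMT TANs on the left and PyMT-Cxcr2-/- TANs on the right. In PyMT-Cxcr2-/- TANs the members other than Hsf1 are higher in replicates 1 and 2 (Hspa1a at 0.66 and 0.34) than in replicates 3 and 4 (-0.34 and -0.66), as are the macrophage and epithelial sums.

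Markers of other cells moved with the tissue and between libraries. The sum of 10 macrophage markers was 2167, 4744, 5042 and 3556 CPM for PyMT TANs and 4204, 4861, 2797 and 2364 CPM in PyMT-Cxcr2-/- TANs, against 261 to 362 CPM in BM neutrophils, with no marker at 0 in any library and all 10 higher in both types of TANs. The sum of 10 epithelial markers was 49.7, 65.8, 330.1 and 469 CPM for PyMT TANs and 257, 337.5, 88.6 and 123 CPM in PyMT-Cxcr2-/- TANs, and at most 0.514 CPM in BM neutrophils, where 7 to 9 of the 10 were at 0, Krt8 in all 4 libraries. In PyMT-Cxcr2-/- TANs, the libraries with the higher macrophage and epithelial sums, replicates 1 and 2, were those with the higher levels of the 9 members named above. In PyMT TANs, replicate 1 had the lowest of both sums and was the lowest for 6 members, while Hsph1 was at 94.0 and 93.9 CPM in replicate 2 (epithelial sum 65.8 CPM) and replicate 4 (469 CPM). In that replicate 1, Hspa1a was at 59.9 CPM and Hsph1 at 44.5 CPM, against at most 0.965 and 0.685 CPM in BM. Without the 4 TAN libraries whose epithelial sum was over 200 CPM, which left 2 libraries of each type of TANs, 8 of 10 members were again higher than in BM for both types. Of all genes, 5621 of 18478 tested were then higher in PyMT TANs and 5885 of 18534 in PyMT-Cxcr2-/- TANs. The libraries kept still had epithelial sums of 49.7 to 123 CPM and macrophage sums of 2167 to 4744 CPM, so these markers were not removed. The log2 fold changes in PyMT TANs were then 7.05 for Hspa1a and 6.75 for Hsph1, and in PyMT-Cxcr2-/- TANs 6.50 and 6.11. The last had been 6.79 with all libraries, and between the TANs Hsph1 then stood at -0.77 (adjusted p = 0.31) in place of -0.08. This selection was chosen after seeing the data, and the part of other cells in the levels was not tested.

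The remaining lists gave the following. Their counts, and that of the macrophage markers above, stand beside shares of all genes. These were 30.1% higher and 23.2% lower for PyMT TANs over BM, and 34.4% and 25.1% for PyMT-Cxcr2-/- TANs over BM. Of 9 neutrophil markers, 8 were lower in both types of TANs than in BM, with sums of 10440 to 17030, 18410 to 30410 and 78090 to 103500 CPM. Of 5 fibroblast markers, 2 of 3 tested were higher in PyMT TANs and 4 of 4 tested in PyMT-Cxcr2-/- TANs, with sums of at most 34.2 CPM. In BM these markers had at most 22 counts per library, so those tested passed the filter only through TANs. Their count is therefore no result beside the shares above. Of 6 lymphocyte markers, 2 of 5 and 3 of 6 tested were lower than in BM, with sums of 10.3 to 50.5 CPM in TANs and 222 to 259 CPM in BM. The BM sum was mostly Cd3d, at 206 to 240 CPM, while Cd3e was at most 0.389 CPM there, so it is no measure of lymphocytes. Cd3d was at 9.14 to 17.1 CPM in PyMT TANs and at 22.3 to 40.2 CPM in PyMT-Cxcr2-/- TANs. For 16 immediate early genes that dissociation is known to raise (Fos, Jun, Egr1, Atf3 and others), 10 of 14 tested were higher and 1 lower in PyMT TANs, while PyMT-Cxcr2-/- TANs had 12 higher and 0 lower. Their sum was 17890, 17510, 18580 and 13800 CPM for PyMT TANs, 20750, 18210, 23070 and 22840 CPM for PyMT-Cxcr2-/- TANs and 6744 to 8203 CPM in BM neutrophils. In PyMT-Cxcr2-/- TANs this sum was higher in replicates 3 and 4, where Hspa1a, Hspa1b and Hsph1 were lower, but its genes did not all follow it. Fos, Fosb, Junb, Egr3, Ier2, Dusp1, Zfp36, Btg2, Nr4a1 and Socs3 were higher in both replicates 3 and 4 than in replicates 1 and 2. Jun, Jund, Egr1, Atf3 and Klf6 were not, and Egr2 had no counts. In replicates 1 to 4, Fos was at 1914, 1782, 1989 and 2065 CPM, and Jun at 485, 404, 374 and 380 CPM. Egr1 was at 648, 483, 665 and 612 CPM and Atf3 at 472, 429, 435 and 395 CPM. Whether digestion and sorting raised the members was not tested, since no undigested tumor sample is among these libraries. Between the TANs, 0 macrophage, epithelial, fibroblast or immediate early genes passed the test, 5 neutrophil markers were higher and 1 (Cxcr2, the deleted gene) lower, and 1 lymphocyte marker was higher. Of all genes, 1.38% were higher and 0.596% lower in that comparison.

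The other genes of the chaperone network moved in both directions. Of 64 further chaperone genes, 56 could be tested between PyMT TANs and BM neutrophils, of which 28 were higher, 7 lower and 21 not past the test, with a median log2 fold change of 0.63. Between PyMT-Cxcr2-/- TANs and BM neutrophils 58 could be tested, of which 26 were higher, 9 lower and 23 not past the test, with a median of 0.51. These counts, and those of the groups that follow, stand beside 30.1% higher and 23.2% lower of all genes for PyMT TANs and 34.4% and 25.1% for PyMT-Cxcr2-/- TANs, and a share near these, as for the J proteins, is no result about a group. The 4 mitochondrial chaperones and proteases listed beside Hspd1 and Hspe1 (Trap1, Hscb, Clpb and Lonp1) were all higher in both types of TANs. Of the 8 subunits of TRiC, the cytosolic chaperonin, 6 were higher in PyMT TANs and 4 in PyMT-Cxcr2-/- TANs, and 0 were lower. Of 9 cochaperones of Hsp70, 4 and 5 were higher and 0 lower. Of 12 cochaperones of Hsp90, 3 were higher and 4 lower in PyMT TANs, and 1 was higher and 4 lower in PyMT-Cxcr2-/- TANs. Of 12 J proteins, 4 were higher and 2 lower in each comparison, and of 9 other Hsp70 and Hsp110 genes with 7 tested, 5 were higher in PyMT TANs while PyMT-Cxcr2-/- TANs had 4 higher and 1 lower. Of 6 small heat shock proteins, 1 of 2 tested was higher in PyMT TANs, while PyMT-Cxcr2-/- TANs had 3 higher and 1 lower. Hspb1, Hspb8, Cryab and the J protein Dnaja4 had 0 to 14 counts per BM library. Where tested, they passed the filter only through TANs, so their rises are no result about these groups. Of 4 further heat shock factors and binding proteins, Hsf2 was higher and Hsbp1 lower in each comparison, with 2 tested.

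The largest rises among these genes were those of Hspb1, a small heat shock protein that binds unfolded proteins, and Bag3, a cochaperone that links Hsp70 to small heat shock proteins and is a known Hsf1 target. Hspb1 was at 2.25, 6.22, 16.7 and 14.6 CPM for PyMT TANs and at 6.73, 9.96, 3.43 and 3.98 CPM in PyMT-Cxcr2-/- TANs, against 0.0622 to 0.400 CPM in BM neutrophils. The BM values rest on 8, 2, 14 and 3 counts, near the 3 counts taken as the smallest level, so the size of its fold is uncertain. It rose by 5.73 in log2 fold change for PyMT TANs (SE 0.77, adjusted p = 7.4e-05) and by 5.03 for PyMT-Cxcr2-/- TANs (SE 0.52, adjusted p = 1.9e-06), and its libraries fell in nearly the same order as the epithelial sums. Bag3 was at 11.3, 19.1, 8.91 and 16.2 CPM for PyMT TANs and at 23.7, 17.1, 15.2 and 9.33 CPM in PyMT-Cxcr2-/- TANs, against 0.514 to 1.06 CPM in BM neutrophils. Bag3 rose by 4.30 for PyMT TANs (SE 0.34, adjusted p = 1.6e-06) and by 4.57 for PyMT-Cxcr2-/- TANs (SE 0.32, adjusted p = 5.5e-08). In PyMT TANs the next were Hspa9 (3.08), the mitochondrial Hsp70, Trap1 (2.63), the mitochondrial Hsp90, Hsf2 (2.56), a second heat shock factor, and Fkbp4 (2.47), a cochaperone of Hsp90. For PyMT-Cxcr2-/- TANs they were Hspa9 (2.56), Hsf2 (2.29), Hspbp1 (2.19), an exchange factor of Hsp70, and Fkbp4 (2.17). The largest falls in PyMT TANs were Fkbp5 (-1.60), a glucocorticoid-induced cochaperone of Hsp90, Dnajc5 (-1.001), Chordc1 (-0.84), Sugt1 (-0.71), Cdc37l1 (-0.70) and Dnajc7 (-0.68). In PyMT-Cxcr2-/- TANs they were Hspa12a (-4.12), a distant relative of Hsp70, Fkbp5 (-1.10), Dnajc7 (-0.94), Cdc37l1 (-0.77), Chordc1 (-0.76) and Dnajc5 (-0.73). All these values are log2 fold changes past the test.

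**Figure D4:**
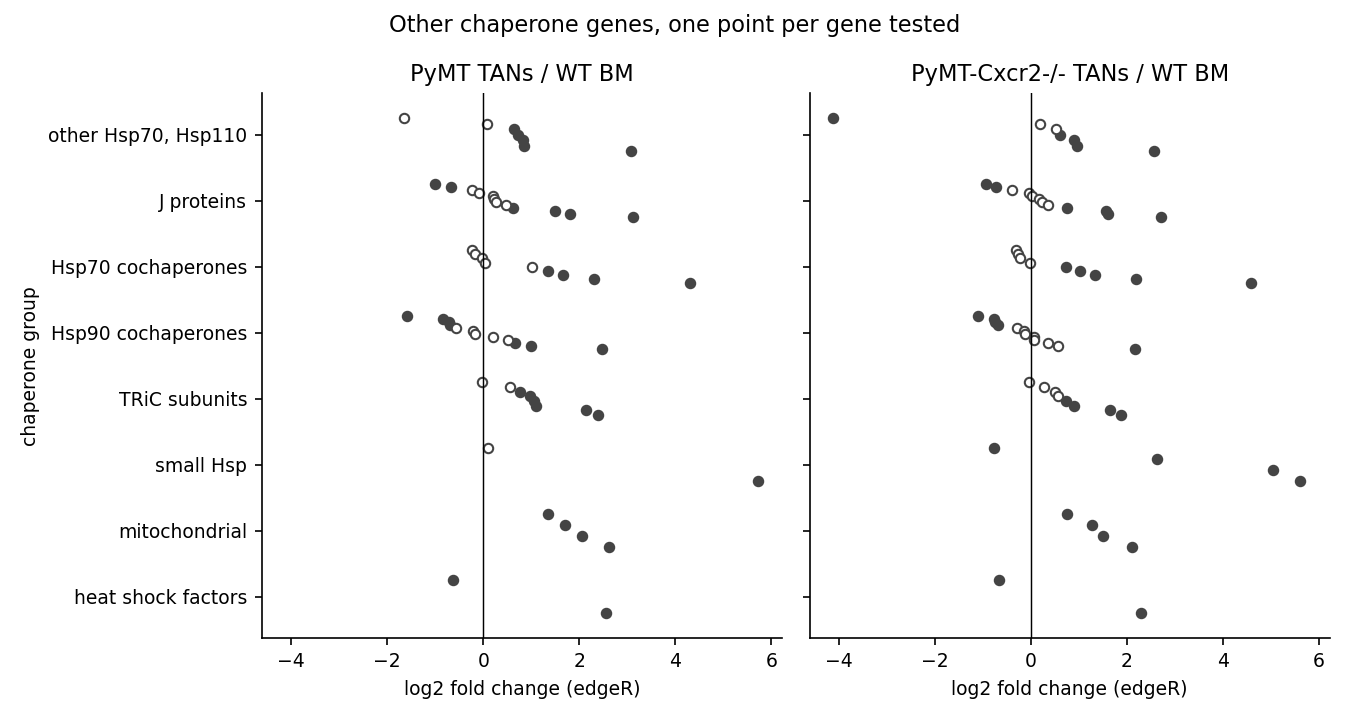
Log2 fold change (edgeR) of the other chaperone genes that could be tested, 1 point per gene in rows by group, for PyMT TANs over BM (56 genes) and PyMT-Cxcr2-/- TANs over BM (58 genes); filled points passed the test. Hspb1 reaches 5.73 and 5.03 and the 4 mitochondrial genes lie to the right of 0 in both panels, whereas the cochaperones of Hsp90 lie on both sides.

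Between PyMT-Cxcr2-/- and PyMT TANs, 59 of the other chaperone genes could be tested and 0 were called, with 14 at an unadjusted p under 0.05 by edgeR. The share of all genes at that level was not taken, so the 14 are no result about these genes. DESeq2 called 2, St13, a cochaperone of Hsp70, at -0.64 (adjusted p = 0.018) and Lonp1, a mitochondrial protease, at -0.59 (adjusted p = 0.039). They were chosen after their values were seen. In edgeR their values were -0.69 (adjusted p = 0.074) and -0.63 (adjusted p = 0.10), and the median over the 59 genes was -0.32, beside -0.07 over all genes.

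Among 7314 other genes, those whose deviations from the group means over the 12 libraries were nearest to those of Hsph1 were Lhfpl2, Cln8, Zmym4, Nt5dc2 and Rps27l, with root mean square differences of 0.20 to 0.22 on the log2 scale, where the median gene was at 0.54. For Dnajb1 they were Itgax, Ptpn9, Chmp7, Prpf3 and Scarb2, with differences of 0.07 to 0.08 and a median of 0.23.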

How the data were processed

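RNA was isolated from sorted neutrophils with TRIzol. Directional, paired-end libraries were made after removal of ribosomal RNA. Reads were trimmed and aligned to mm10 with STAR, and HTSeq gave raw counts for each gene, which the authors deposited without normalization. The annotation release and the strand setting of the counting are not given in the sources used here. HTSeq assigned 32.0% to 52.5% of each library to no feature and set 6.07% to 11.4% aside as not uniquely aligned. These rows were left out.

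Identifiers were matched to GENCODE M21 (GRCm38) without their version, 55154 of 55335. edgeR 4.0.16 in R 4.3.3 was used on each pair of groups alone, with TMM, filterByExpr, robust estimation and the quasi-likelihood test. The standard error is the log2 fold change divided by the square root of F. Replicates of a group differed by a chi-square per degree of freedom of 24.9 to 150.5, so that none was a copy of another. In simulated counts with 200 genes changed by 2 on the log2 scale, 124, 179 and 123 were recovered in the comparisons of PyMT TANs with BM, PyMT-Cxcr2-/- TANs with BM and the TANs (17153, 17732 and 18463 genes), and with changes of 1 on that scale 43, 90 and 36.

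The members and gene lists were chosen with earlier results of these data known. Named other chaperones are, per comparison, up to 6 higher and 6 lower, taken by size of change from those that passed the test with a mean log2 CPM of 1 or more, and the nearest 5 genes to Hsph1 and Dnajb1 were sought among those with a mean log2 CPM of 3 or more. Alternatives were other scalings, filters and fits, DESeq2 1.42.0, an adjustment for GC content and gene length, the replicate number as a block, and each library left out in turn.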

Additional observations from a re-analysis of the deposited data

Results flagged for a closer look

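In BM neutrophils, replicate 2 stood apart for Dnajb1, at 111.7 CPM against 91.8 to 93.0 CPM in the other libraries, its gap to the nearest being 0.937 of the group's range. It was the 1 case in the 30 sets of 4 libraries examined (10 members in 3 groups), and chance alone gives about 1 in 20. The same library was the highest of the BM libraries for Hspa1a, Hspa1b, Hspa8, Hsp90aa1, Hsph1, Hspd1 and Hspe1. Without it, the log2 fold change of Dnajb1 from BM was 0.20 in PyMT TANs (adjusted p = 0.29 by edgeR) and 0.24 in PyMT-Cxcr2-/- TANs (adjusted p = 0.055), neither past the test.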

How the results depend on the processing

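The count of members past the test was 8, 8 and 0 in the 3 comparisons under every alternative run except a correction for GC content and length of the genes, where Hsp90aa1 fell under 1.5-fold in PyMT-Cxcr2-/- TANs over BM (0.42, with the replicate block 0.44) and the count was 7. It also moved 4 folds of that comparison by over 1.5 times, to 6.27 for Hspa1a, 5.79 for Hspa1b, 6.03 for Hsph1 and 1.86 for Hsf1 (with the block 6.24, 5.78, 5.95 and 1.83), and with the block Hsph1 in PyMT TANs over BM to 6.19. That correction lowered the share of calls that were higher from 56.4% to 46.0% in PyMT TANs over BM, from 57.9% to 39.8% in PyMT-Cxcr2-/- TANs over BM and from 69.9% to 55.8% between the TANs. With it, and in brackets with the block too, PyMT TANs over BM gave -0.19 (-0.23) for Hsp90ab1 and -0.17 (-0.18) for Dnajb1, and PyMT-Cxcr2-/- TANs over BM gave -0.27 (-0.26) and -0.39 (-0.38). Without the TAN libraries of high epithelial sum, Hsp90ab1 was at -0.20 in PyMT TANs over BM, and leaving out each library gave -0.0080 to 0.27. Between the TANs, leaving out each library gave -0.058 to 0.17 for Hsp90ab1, -0.31 to 0.13 for Hsph1, -0.16 to 0.020 for Dnajb1 and -0.41 to 0.045 for Hspa1a. Of the other chaperones named, Cdc37l1 in PyMT TANs over BM fell under 1.5-fold without PyMT replicate 3 (-0.57) and without the TAN libraries of high epithelial sum (-0.50), as did Dnajc5 in PyMT-Cxcr2-/- TANs over BM in the latter (-0.57). Of the other chaperones, 2 were called between the TANs with 12 libraries in one fit and 2 with DESeq2 (St13 and Lonp1, lower), against 0. On library totals alone, mean levels moved to 94.6 CPM for Hspa8, 262.8 for Hsp90ab1, 0.542 for Hsph1, 80.5 for Dnajb1, 7.62 for Hspd1 and 16.3 for Hsf1 in BM, and to 218 for Hsp90aa1 and 123.4 for Dnajb1 in PyMT TANs. The causes of these changes were not tested. Replicate numbers are shared by different mice, and the deviations of same-numbered libraries had mean correlations of -0.04, 0.05 and -0.14. With the replicate block the members past the test were again 8, 8 and 0 and the other chaperones 34, 35 and 0, while calls between the TANs over all genes went from 365 to 13, of which 30.8% were higher. Over all genes that comparison gave 1039 calls with DESeq2, 886 with 12 libraries in one fit, 594 without a filter, 104 with the GC correction, 30 with it and the block, and 15 without the TAN libraries of high epithelial sum. Leaving out 1 library moved the 365 calls by over 1.5 times in 6 cases, to 23 without PyMT replicate 2 (43.5% higher), 189 without PyMT replicate 4, and 213, 227, 83 and 96 without PyMT-Cxcr2-/- replicates 1, 2, 3 and 4, while the members called stayed at 0.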
